A study of Mus musculus with 6 samples.

Results

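The genes described here are 10 of the NF-kappaB pathway: Nfkb1, Nfkb2, Rela and Relb, which encode subunits of the transcription factor, the inhibitors Nfkbia and Tnfaip3, and the inflammatory targets Il6, Il33, Vcam1 and Icam1. They were chosen by name, and every probe set whose platform annotation gave such a gene as its single symbol was taken. This found 17 probe sets for 9 of the genes, out of 18193 genes with a probe set of 1 symbol, and Nfkb1 was not analysed here. The data are from C2C12, a mouse myoblast line labelled undifferentiated: 3 samples grown for 72 h with 50 mM sodium pyruvate, in DMEM made without pyruvate, and 3 untreated samples grown for 72 h in basal DMEM. Serum (10%), glutamine (4 mM) and antibiotics (1%) were the same in both media. The labels do not say how much pyruvate the basal DMEM held, and a control for the added sodium was not analysed here. Each sample was hybridised to 1 Affymetrix whole-genome mouse array, and since nothing says that replicates came from separate cultures, the p-values describe the scatter among these arrays, which may be technical.

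NF-kappaB is a family of dimeric transcription factors that rest in the cytoplasm, bound by inhibitors of the IkappaB family, until an inhibitor is phosphorylated by the IKK complex and destroyed. The freed dimer enters the nucleus and switches on genes of inflammation, survival and adhesion, among them its own inhibitors, Nfkbia and Tnfaip3, which close a feedback loop. In skeletal muscle the pathway is known for holding back differentiation of myoblasts and for its activity in wasting.

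The kappaB site, the DNA element that these factors bind, is shown first. Promoter sequence from RefSeq (build GRCm38.p6), 250 bases before to 50 after each start site, was held for 7 of the 10 genes, in 11 promoters, some genes having several start sites. The 10-base kappaB consensus GGGRNNYYCC (R is A or G, Y is C or T, N is any base) was searched on both strands. Of the 11 promoters, 6, of 4 genes, held a match, whereas 8.46% of all 32851 promoters of that length did. The genes were chosen by name as pathway members, so a share above that of all promoters follows from the choice and is not a result. Matches in a promoter can overlap each other. The promoters of Nfkb2 were counted separately, though the downstream ones overlap and share 1 match. A match is a run of letters and was not measured as a bound site. The 250 bases before the start site are printed 5′ to 3′ for the inhibitor genes Nfkbia and Tnfaip3 and for Il6, whose matches are in capitals, and for Il33, which had none from either of its start sites.
Nfkbia (chr12:55492648-55492897, minus strand): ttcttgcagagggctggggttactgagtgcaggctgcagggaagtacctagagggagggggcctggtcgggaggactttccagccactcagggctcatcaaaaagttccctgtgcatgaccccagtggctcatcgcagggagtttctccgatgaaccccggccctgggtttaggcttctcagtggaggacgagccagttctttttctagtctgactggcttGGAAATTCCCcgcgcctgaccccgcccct
Tnfaip3 (chr10:19015411-19015660, minus strand): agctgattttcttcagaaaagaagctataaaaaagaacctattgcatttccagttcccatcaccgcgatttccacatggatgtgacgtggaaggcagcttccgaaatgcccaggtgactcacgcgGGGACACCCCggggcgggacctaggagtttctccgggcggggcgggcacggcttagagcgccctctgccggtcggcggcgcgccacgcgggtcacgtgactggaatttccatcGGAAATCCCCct
Il6 (chr5:30012864-30013113, plus strand): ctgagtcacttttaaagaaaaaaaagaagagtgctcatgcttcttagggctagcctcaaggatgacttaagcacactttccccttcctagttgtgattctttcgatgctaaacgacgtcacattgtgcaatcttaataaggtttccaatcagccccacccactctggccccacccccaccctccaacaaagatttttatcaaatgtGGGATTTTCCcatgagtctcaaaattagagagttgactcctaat
Il33 (chr19:29924863-29925112, plus strand): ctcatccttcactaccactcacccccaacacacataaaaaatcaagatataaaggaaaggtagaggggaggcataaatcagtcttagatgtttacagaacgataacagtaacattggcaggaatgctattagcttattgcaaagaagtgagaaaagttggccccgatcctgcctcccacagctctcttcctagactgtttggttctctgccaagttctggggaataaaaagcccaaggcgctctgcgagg

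The Nfkbia match began 29 bases before the start site and the Il6 match 44 bases before it. The Tnfaip3 promoter held matches at 125 and 12 bases before the start, while the promoter of its other start site held none. Nfkb2, which encodes the precursor p100 of the subunit p52, had overlapping matches at 39 and 38 bases before its most upstream start and another at 11. These are shown with 10 bases on each side, with the matching letters of 1 site in capitals in each.
Nfkb2, 39 bases before the start: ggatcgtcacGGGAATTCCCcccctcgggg
Nfkb2, 11 bases before the start: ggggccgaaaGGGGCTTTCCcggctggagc
No match lay in the windows of Rela and Icam1, but sites that depart from this consensus were not searched for. The promoters of Relb, Vcam1 and Nfkb1 were not used here.

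In pyruvate cells Rela and Nfkbia rose to 1.23 and 1.24 times the untreated mean, Vcam1 and Il33 fell to 0.62 and 0.75 times, and Il6 and Icam1 were near the floor of the arrays in both groups. Of the 9 genes, 6 had a brightest probe set above the signal filter, which was a mean log2(signal + 16) of at least 5.53, a signal of about 30.3, and Relb, Il6 and Icam1 did not. Among the 6, 2 were higher and 2 lower with pyruvate at an adjusted p under 0.05 in limma, a linear model with a shared estimate of the spread, fitted to all 22519 probe sets above the filter. Over all 10685 genes tested the same rule called 20.7% higher and 14.5% lower, 35.1% in either direction, so a call was common in this experiment. The median log2 change of the 6 was 0.16 and that of all genes tested 0.03. In 5 of the 6 no pyruvate array fell within the untreated range, against 48.6% of all genes tested. By probe set, 4 of the 14 tested were higher, 3 lower and 7 not called, where 16.3% of all tested probe sets were higher and 15.9% lower, 32.2% together. After quantile normalization 3 of the 6 genes were higher and 2 lower, beside 20% and 14.6% of all genes (34.6% together), and after cyclic loess also 3 and 2, beside 19.8% and 15.1% (34.9% together). Of the 22518 probe sets below the filter, where Relb, Il6 and Icam1 lay with 0 calls in limma and 0 at an unadjusted p under 0.05, 0.666% were called higher and 1.06% lower. All log2 changes below are pyruvate minus untreated on the log2(signal + 16) scale, which understates the change of dim genes, and all adjusted p-values are from limma, adjusted by Benjamini and Hochberg's method across every probe set in the fit. Signals of different probe sets cannot be set against each other as levels of their genes.

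**Figure D1:**
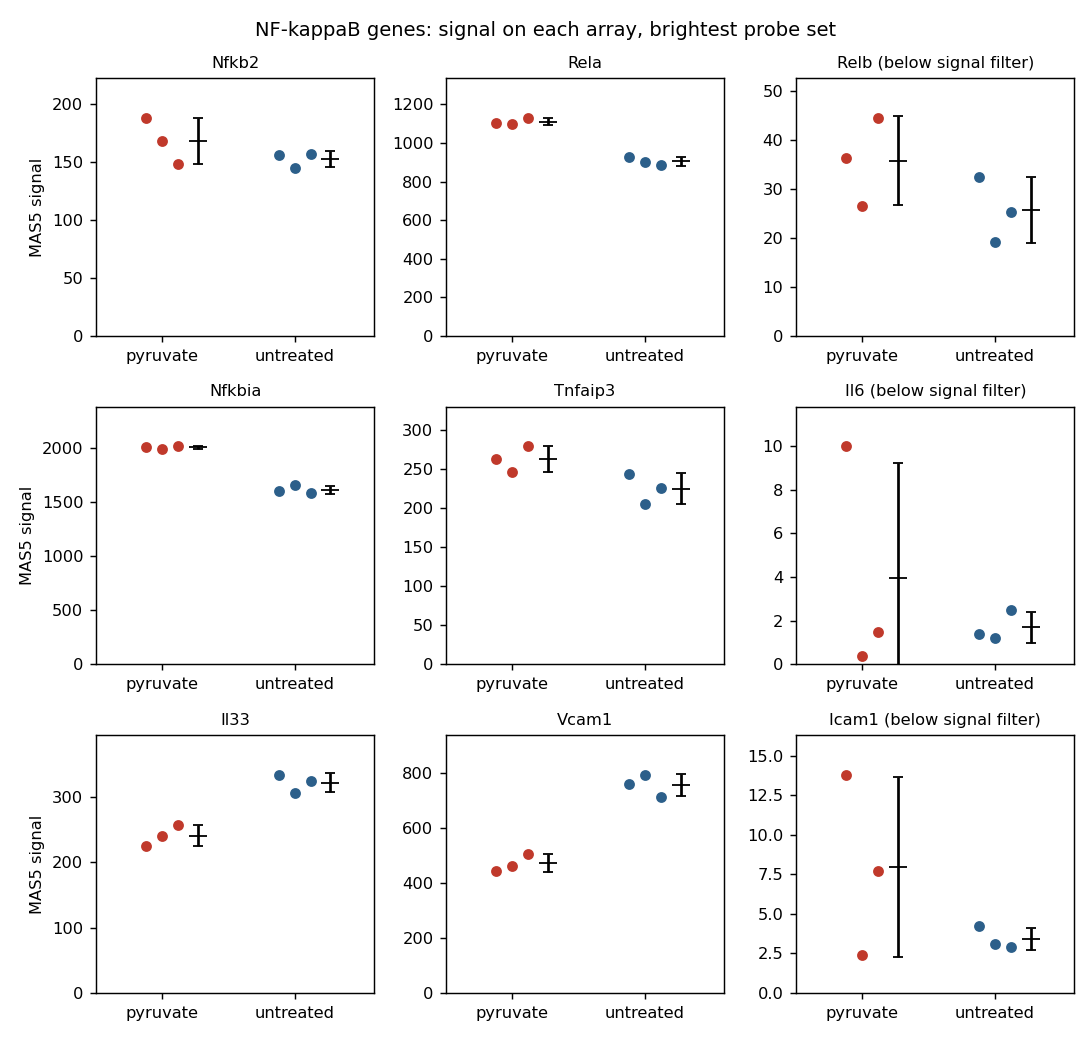
MAS5 signal (linear scale from 0) of the brightest probe set of each of the 9 genes, with 1 point per array, pyruvate arrays in red on the left and untreated arrays in blue on the right, and the mean ± SD of each group in black. Rela and Nfkbia lie above and Il33 and Vcam1 below all untreated arrays, and Il6 stays at or under 10.0 and Icam1 at or under 13.8 on every array.

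Rela encodes p65, the subunit that carries the main activation domain of the classical dimer. Its 1 probe set read 1104.3, 1096.2 and 1130.4 on the pyruvate arrays, against 929.2, 902.6 and 883.1 on the untreated arrays. All pyruvate arrays were above the highest untreated array. The means were 1110.3 ± 17.9 in pyruvate and 905.0 ± 23.1 in untreated cells (SD, n = 3 arrays each), a ratio of 1.23. Rela rose by 0.29 with a standard error of 0.05 (limma adjusted p = 0.00069), and by 0.28 after quantile normalization of the arrays (adjusted p = 0.00073).

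Nfkb2 did not pass the test. Its brighter probe set read 188.4, 168.2 and 148.4 with pyruvate, against 156.1, 145.2 and 157.2 without. The groups overlapped, since pyruvate array 3 was below 2 of the untreated arrays. The log2 change was 0.12 with a 95% interval of -0.08 to 0.33 (limma adjusted p = 0.35). It was 0.04 without pyruvate replicate 1 and 0.20 without pyruvate replicate 3, not called in either case. A second probe set, of the kind whose probes can cross-hybridise, had means of 75.9 ± 6.45 in pyruvate and 65.2 ± 7.11 in untreated cells (SD, n = 3 arrays each), a change of 0.18 (limma adjusted p = 0.27).

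Relb encodes the partner of p52 in the alternative branch of the pathway and is itself a target of p65. It read 36.3, 26.5 and 44.5 with pyruvate, against 32.5, 19.2 and 25.3 without. The ranges overlapped, and the mean over the 6 arrays fell just under the filter, so its value comes from the same fit made without the filter. The log2 change was 0.31 with an interval of -0.14 to 0.77 (limma adjusted p = 0.40), which includes 0. It was 0.19 without pyruvate replicate 3, 0.20 without untreated replicate 2 and 0.45 without pyruvate replicate 2. With a pseudocount of 1 it was 0.46 and with 64 it was 0.15.

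Of the inhibitors, Nfkbia rose and Tnfaip3 was not called. Nfkbia encodes IkappaBalpha, which binds dimers that contain p65 and is resynthesised after each round of activation. Its brightest probe set, 1420088_at, read 2017.9, 1995.8 and 2021.4 in pyruvate cells, against 1608.7, 1657.7 and 1589.0 in untreated cells. The groups were far apart relative to their spread, with means of 2011.7 ± 13.9 in pyruvate and 1618.5 ± 35.4 in untreated cells (SD, n = 3 arrays each). Nfkbia rose by 0.31 on this probe set, with a standard error of 0.04 (limma adjusted p = 0.00032). The median change of the 1000 tested probe sets nearest to it in mean level was 0.08. After quantile normalization Nfkbia rose by 0.26 (adjusted p = 0.00054) and after cyclic loess by 0.21 (adjusted p = 0.0024).

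Nfkbia was measured by 5 probe sets, and they gave different sizes. The largest change was on 1448306_at, the only 1 of the 5 that the annotation ties to a reference transcript, which read 402.1, 433.5 and 431.9 with pyruvate, against 277.9, 264.4 and 299.4 without. It was 1.51 times as high in pyruvate cells, a rise of 0.57 with a standard error of 0.07 (limma adjusted p = 7.6e-05), where the 1000 probe sets nearest in level had a median of -0.01. On 1438157_s_at the gene rose by 0.20 (limma adjusted p = 0.023), a call that was lost without the variance trend and when any of pyruvate replicates 1 and 3 or untreated replicates 1 and 2 was left out (adjusted p of 0.0546 to 0.098). The other 2 probe sets, 1449731_s_at and 1420089_at, each changed by 0.06 with overlapping groups (limma adjusted p = 0.64 and 0.75). The per-array log2 difference between 1420088_at and 1448306_at was 2.21 ± 0.06 in pyruvate and 2.46 ± 0.12 in untreated cells (SD, n = 3 arrays each).

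Tnfaip3 encodes A20, an enzyme that edits ubiquitin chains and shuts signalling off upstream of IKK. Its brighter probe set read 263.3, 246.3 and 279.7 with pyruvate, against 244.2, 205.5 and 226.5 without. The dimmer read 88.3, 69.5 and 92.3 with pyruvate, against 64.7, 64.7 and 57.6 without. On both, every pyruvate array was above every untreated array, but neither passed: the log2 changes were 0.21 and 0.34, with standard errors of 0.08 and 0.12 (limma adjusted p = 0.063 and 0.0548). The call turned on the processing. After quantile normalization Tnfaip3 was higher on both probe sets (0.22, adjusted p = 0.0499, and 0.37, adjusted p = 0.033), likewise after cyclic loess (adjusted p = 0.0461 and 0.037), and it was also called on the mean of its probe sets (0.27, adjusted p = 0.025). Most alternatives gave no call. With the probe set mean counted under it, the brighter probe set was called in 4 and not called in 14. The dimmer was called in 7 and not called in 10.

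**Figure D2:**
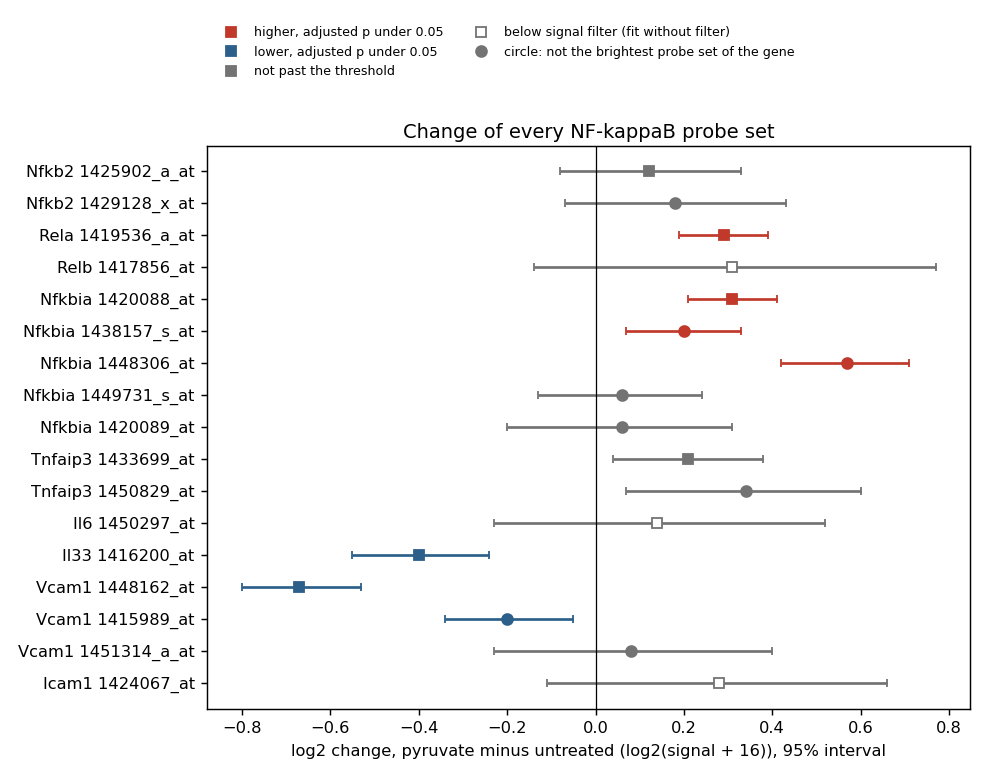
Log2 change (pyruvate minus untreated, log2(signal + 16) scale) with its 95% interval from limma for all 17 probe sets of the 9 genes, squares for the brightest probe set of a gene and circles for the others. Red points were called higher, blue points lower and grey points neither; open points lay below the signal filter and come from the fit without it. Intervals of Nfkb2, Relb, Il6 and Icam1 cross 0, as do those of Nfkbia on 1449731_s_at and 1420089_at. Those of Vcam1 run from well below 0 to across it.

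Il6, the acute-phase cytokine that is also released by working muscle, was hardly detectable. Its probe set read 10.0, 0.4 and 1.5 with pyruvate, against 1.4, 1.2 and 2.5 without. The high value was from 1 pyruvate array, and of the other two, 0.4 lay below the untreated range and 1.5 within it. The mean level of this probe set was at the 6.94th percentile of all 45037 non-control probe sets. The log2 change of 0.14 (limma without the filter, adjusted p = 0.68) had an interval of -0.23 to 0.52, and it was -0.06 without pyruvate replicate 1, so no direction was measured.

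Il33, an alarmin of the interleukin-1 family that is kept in the nucleus and released from damaged cells, was clearly expressed and fell. Its probe set read 224.6, 239.9 and 256.5 in pyruvate cells, against 333.9, 305.2 and 324.8 in untreated cells. The highest pyruvate array was below the lowest untreated array. Il33 averaged 240.3 ± 16 in pyruvate and 321.3 ± 14.7 in untreated cells (SD, n = 3 arrays each), and it fell by 0.40 with a standard error of 0.07 (limma adjusted p = 0.0013). Over the 18 alternatives its adjusted p stayed at or under 0.0085.

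Vcam1 and Icam1 encode adhesion molecules of the immunoglobulin family that bind integrins on leukocytes. VCAM-1 has also been studied with its integrin partner as a contact between mouse myoblasts and myotubes. The brightest Vcam1 probe set, 1448162_at, read 443.7, 463.5 and 507.6 with pyruvate, against 759.5, 795.2 and 715.5 without. Every pyruvate array lay below every untreated array. Vcam1 averaged 471.6 ± 32.7 in pyruvate and 756.7 ± 39.9 in untreated cells (SD, n = 3 arrays each), a ratio of 0.62, and fell by 0.67 with a standard error of 0.06 (limma adjusted p = 2.1e-05).

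The fall of Vcam1 was not the same on its other probe sets. On 1415989_at the signals were 370.4, 318.6 and 337.3 with pyruvate, against 402.7, 385.9 and 391.3 without, so the groups were apart by a smaller margin and the gene fell by 0.20 (limma adjusted p = 0.040). That call was lost in 5 of the 6 fits that left out 1 array, each except the fit without pyruvate replicate 1 (adjusted p of 0.074 to 0.14), and with cyclic loess, median centring, no variance trend or no filter. On 1451314_a_at the signals were 166.8, 209.7 and 242.2 with pyruvate, against 150.7, 220.8 and 211.1 without, with overlapping groups and a change of 0.08 (interval -0.23 to 0.40, limma adjusted p = 0.71). The log2 difference of 1448162_at over 1451314_a_at was 1.15 ± 0.16 in pyruvate and 1.89 ± 0.28 in untreated cells (SD, n = 3 arrays each). Averaged over the 3 probe sets, Vcam1 fell by 0.26 (limma adjusted p = 0.013), well short of the 0.67 of the brightest.

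**Figure D3:**
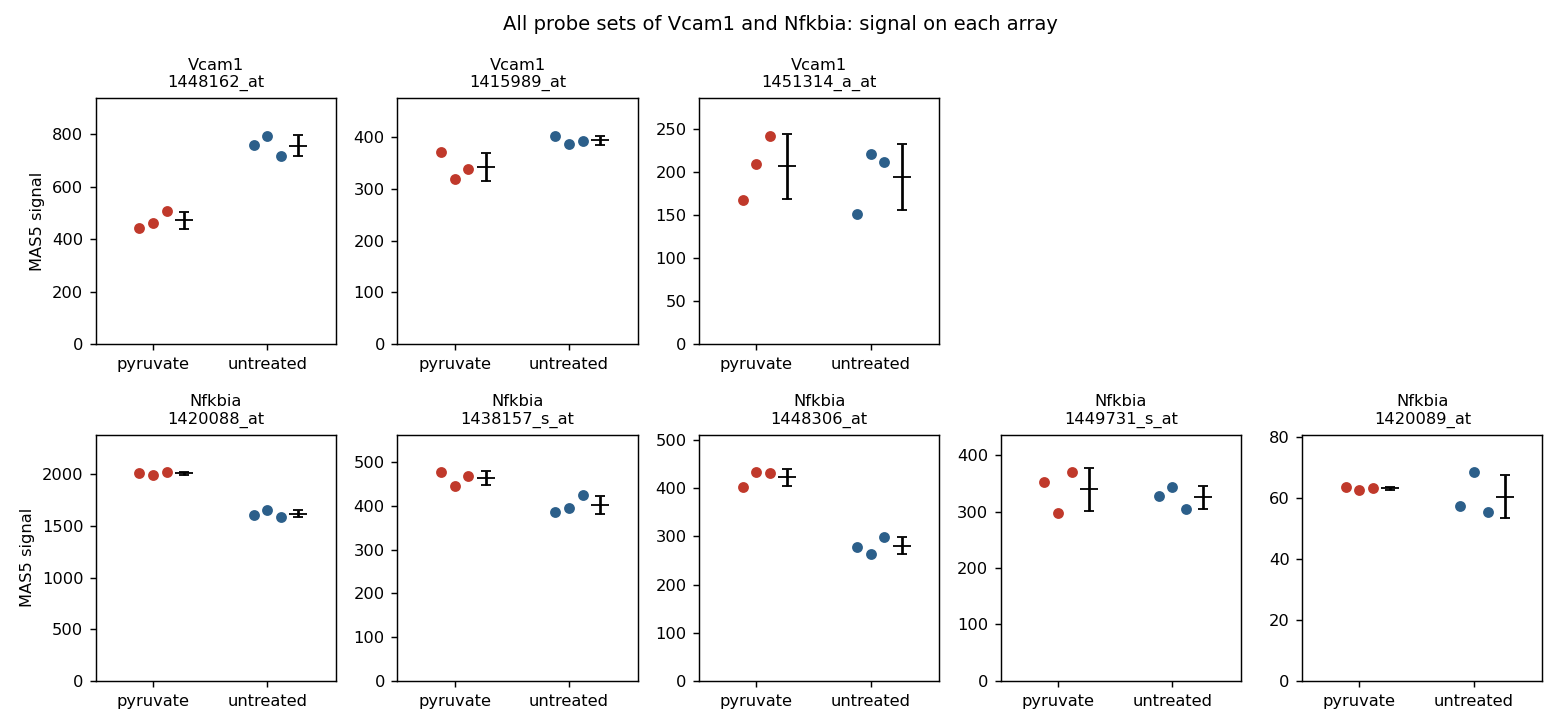
MAS5 signal on each array (points, linear scale from 0) for the 3 probe sets of Vcam1 in the top row and the 5 of Nfkbia in the bottom row, pyruvate in red on the left, untreated in blue on the right, with mean ± SD in black. Each panel has its own axis. Relative to the signal, the separation of the groups shrinks from left to right for Vcam1, and is widest on 1448306_at for Nfkbia.

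Icam1 was dim. It read 13.8, 2.4 and 7.7 with pyruvate, against 4.2, 3.1 and 2.9 without. The pyruvate arrays spanned the untreated range on both sides, and the probe set was at the 16.1th percentile of all probe sets. The log2 change was 0.28 with an interval of -0.11 to 0.66 (limma without the filter, adjusted p = 0.38). It was 0.11 without pyruvate replicate 1, 0.45 without pyruvate replicate 2, 0.80 with a pseudocount of 1 and 0.09 with 64, with no call in any of these.

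The brightest probe sets of the arrays were in general higher with pyruvate. Between log2 levels of 9 and 11, where Rela, at 9.99, and Nfkbia, at 10.83, lay, the median change of 3704 probe sets was 0.01, and above 11 it was 0.23 over 864 probe sets. The 1000 probe sets nearest to Rela had a median of 0.02. Nfkbia lay near the top of that range, and the 1000 nearest to its brightest probe set had a median of 0.08, with 61.7% of them higher. Medians of the array signals lay between 30.3 and 33.0, pairs of arrays correlated across probe sets at 0.985 to 0.991 for arrays of 1 group and at 0.979 to 0.983 otherwise, and no array stood apart.

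**Figure D4:**
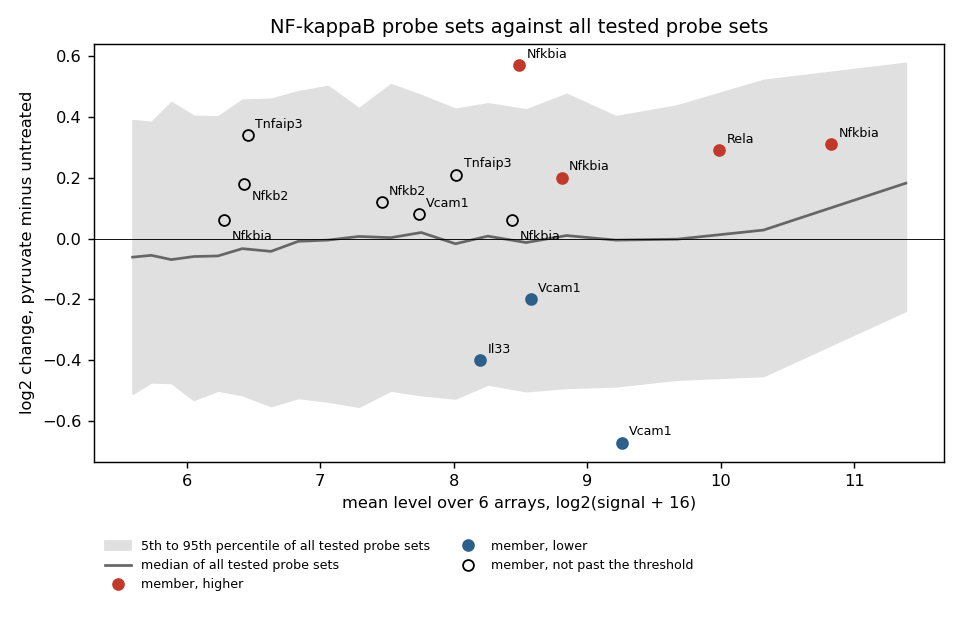
Log2 change (pyruvate minus untreated) against the mean level over 6 arrays for the 14 tested probe sets of the pathway genes, over the median (line) and the 5th to 95th percentile (band) of all 22519 tested probe sets in 20 bins of level. Only 1448306_at of Nfkbia and 1448162_at of Vcam1 lie outside the band, at 0.57 and -0.67.

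The wider pathway was read from 6 lists of 120 genes, of which 114 had a probe set and 87 were tested. Of these 87, 21 were higher and 13 lower, 24.1% and 14.9%, close to the 20.7% and 14.5% of all genes tested. Taken 1 by 1, the lists differed from each other. On the list of other subunits and inhibitors 8 genes were tested, none of them a subunit gene, and the only call was Nfkbiz. It encodes a nuclear IkappaB protein that helps induce Il6. Nfkbiz had means of 195.0 ± 17.9 in pyruvate and 271.3 ± 0.666 in untreated cells (SD, n = 3 arrays each) and fell by 0.45 (limma adjusted p = 0.00095). Its other 2 probe sets were not called. The subunit gene Rel and the IkappaB family genes Bcl3 and Nfkbid were below the filter, and the list had a median change of 0.00.

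Among 25 tested kinases and adaptors, 3 rose, 4 fell and 18 were not called (median -0.02), where 20.7% of all genes tested were higher and 14.5% lower. Ikbkg encodes NEMO, the regulatory subunit of IKK, and had means of 1410.0 ± 67.7 in pyruvate and 680.5 ± 30.9 in untreated cells (SD, n = 3 arrays each), a rise of 1.03 (limma adjusted p = 3.1e-07). Of its 5 other probe sets 4 were also higher, and 1 was not called. Irak2, a kinase below the interleukin-1 and Toll-like receptors, rose by 0.69, and Sharpin, a part of the linear ubiquitin ligase that modifies NEMO, by 0.52. The catalytic subunit gene Ikbkb did not pass (-0.02, adjusted p = 0.84). Card10, a scaffold that links receptors to IKK, fell by 0.97, to 36.7 in pyruvate cells against 87.6 in untreated cells. The other genes that fell, named after their values were seen as was Ikbkb, were Malt1 (-0.47), Tbk1 (-0.43) and Tab2 (-0.16).

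Of 13 tested receptors 5 rose and 8 were not called, with a median of 0.15, against 20.7% higher and 14.5% lower over all genes tested. Cd14, a co-receptor for bacterial lipopolysaccharide, rose by 0.95, with means of 224.3 ± 11.9 in pyruvate and 108.1 ± 5.88 in untreated cells (SD, n = 3 arrays each; limma adjusted p = 9.6e-06). Tlr2, its partner for lipopeptides, rose by 0.58, Tnfrsf12a, the receptor for the cytokine TWEAK, by 0.43 and Ltbr, the lymphotoxin receptor that feeds the alternative branch, by 0.40. Tnfrsf1a, named after its value was seen, rose by 0.29. All the ligand genes with a probe set, Tnf, Il1a, Il1b, Lta, Ltb and Tnfsf11, were below the filter.

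Negative regulators showed 1 gene higher and 1 lower of 15 tested (median -0.04), beside 20.7% and 14.5% of all genes tested. Cyld, a deubiquitinase that trims the chains on which IKK is activated, rose by 0.21 (limma adjusted p = 0.041), and Il1rn, the interleukin-1 receptor antagonist, fell by 0.78, to 34.7 in pyruvate cells against 70.4 in untreated cells.

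Of 18 other tested targets of the pathway 9 rose, 3 fell and 6 were not called (median 0.22), while 10 further targets were below the filter. Over all genes tested 20.7% were higher and 14.5% lower. Ccl2, a chemokine for monocytes, rose by 1.98, Selp, P-selectin, by 1.72, Csf1, the macrophage growth factor, by 1.09 and Ptgs2, the inducible cyclooxygenase, by 0.94. Csf1 had means of 977.5 ± 14.9 in pyruvate and 449.7 ± 3.66 in untreated cells (SD, n = 3 arrays each; limma adjusted p = 7.2e-08), and all of the other probe sets of Csf1, Selp and Ptgs2 were also higher. The targets that fell, named after their values were seen, were Plau (-0.56), Irf1 (-0.35) and Sod2 (-0.18). Plau averaged 23.7 in pyruvate cells, under the filter signal of 30.3, against 42.7 in untreated cells. It passed the filter only through the untreated arrays, and the floor limits the size of its fall. Many of these genes are known to answer to other factors as well.

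Partners of the adhesion molecules moved in both directions: of 8 tested, 3 rose and 4 fell (median -0.12), where 20.7% of all genes tested were higher and 14.5% lower. Itga4, the alpha chain of the integrin that binds VCAM-1, fell by 1.16, to 30.1 ± 3.16 in pyruvate cells against 86.8 ± 10.9 in untreated cells (SD, n = 3 arrays each; limma adjusted p = 6e-05). The pyruvate mean was just under the filter signal, so the size of this fall is limited by the floor of the arrays. Its beta chains Itgb1 and Itgb7 rose by 0.23 and 0.54. Itgb1, named after its value was seen, was not called after cyclic loess (0.10, adjusted p = 0.12). Adam10, a protease that sheds surface proteins, fell by 0.52. Of its other 2 tested probe sets 1 was also lower and 1 was not called (-0.04, limma adjusted p = 0.78). The genes of the moesin family, whose proteins anchor ICAM-1 and VCAM-1 to actin, did not move together. Msn, moesin, rose by 0.43, while Ezr, ezrin, fell by 0.31 and Rdx, radixin, by 0.29. Ezr and Rdx were picked out with their values known. Msn is bright, and after quantile normalization it rose by 0.17. The leukocyte integrin genes Itgal, Itgam and Itgb2, which bind ICAM-1, were below the filter.

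**Figure D5:**
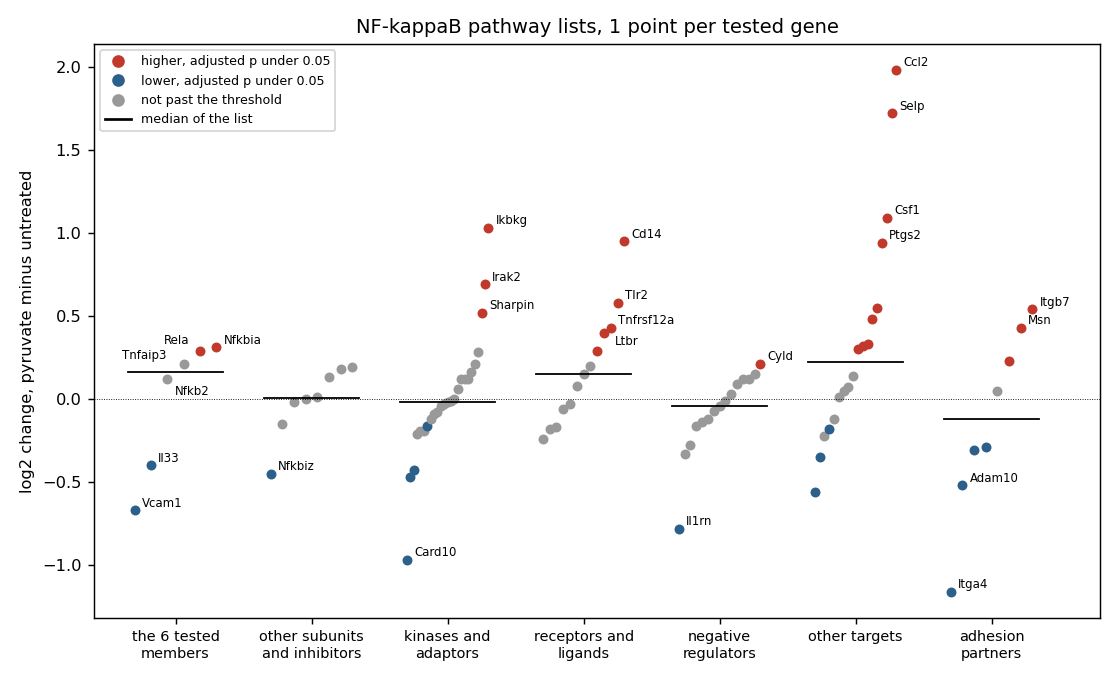
Log2 change (pyruvate minus untreated) of each tested gene, 1 point per gene on its brightest probe set, for the 6 tested pathway members at the left and for 6 lists of related genes, with the median of each list as a black bar. Red points were called higher, blue lower and grey neither; the highest points are Ccl2 at 1.98 and Selp at 1.72, and the lowest is Itga4 at -1.16.

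The cells were checked against markers. Of 6 myoblast markers 5 were above the filter, namely Myod1, Myf5, Des, Cdh15 and Itga7, and Pax7 was below it. Of the 5, Myod1 was higher with pyruvate and 3 were lower, where 20.7% of all genes tested were higher and 14.5% lower. The summed signal of the myoblast list was 6801.3 to 7032.7 in pyruvate and 7664.1 to 7957.6 in untreated cells. That of 6 myotube markers was 550.8 to 739.9 in pyruvate and 4628.4 to 4982.6 in untreated cells. Of these 6, 5 were lower, against 14.5% of all genes tested. Untreated cells, labelled undifferentiated, thus carried the higher signal of differentiation genes. This moved with the fall of Vcam1, Itga4 and Il33, and its part in those results was not tested. In bulk samples fewer cells of a type and less RNA per cell cannot be told apart. Of 8 macrophage markers 6 were below the filter and the others, Cd68 and Csf1r, were not called (limma adjusted p = 0.41 and 0.28), and the summed signal was 190.5 to 248.3 in pyruvate and 176.5 to 199.2 in untreated cells. Of 6 endothelial markers 5 were below the filter and Kdr was lower (-0.43, limma adjusted p = 0.043, and 0.058 after quantile normalization), with sums of 50.7 to 64.1 in pyruvate and 77.6 to 111.7 in untreated cells. Kdr passed the filter signal of 30.3 only through the untreated arrays, with means of 25.8 in pyruvate and 40.4 in untreated cells. Of 6 fibroblast markers 4 were tested, with a median change of 0.07, and -0.02 after quantile normalization. Col1a2 was higher (0.33, but 0.13 after quantile normalization and 0.18 after cyclic loess, the 1000 probe sets nearest in level having a median of 0.20). Pdgfra (0.46), Col1a1 (-0.24) and Dcn (-0.19) were not called (limma adjusted p = 0.0546, 0.055 and 0.0537), though Pdgfra was after quantile normalization (adjusted p = 0.036). The summed signal, most of it from Col1a2, was 4204.5 to 4396.8 in pyruvate cells and 3390.7 to 3677.6 in untreated cells. None of these markers was listed at 0 on any array.

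By a fixed rule, the genes most like Nfkbia and Vcam1, the called members with the highest and the lowest change, were taken by Pearson correlation of log2(signal + 16) over the 6 arrays. For Nfkbia these were Gask1b (r = 0.999), Grem1 (0.998) and Srpx2 (0.998), and for Vcam1 they were Svil (0.997), Pag1 (0.996) and Grsf1 (0.996). The arrays form 2 groups, so any gene that differed between them scores highly: 857 genes correlated with Nfkbia at over 0.95, and 426 with Vcam1.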

How the data were processed

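RNA from 3 pyruvate and 3 untreated C2C12 samples was measured on 1 array each. The authors deposited linear intensity values, which the submitters' processing notes attribute to MAS5, with no version or settings. Every array had a trimmed mean of 150.0, a common scale under which global shifts in RNA content are not visible. Arrays carry no read depth, and their number limits the precision.

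Of 45101 probe sets, 64 controls were left out. Symbols came from the platform annotation: 34945 probe sets had 1 symbol, 932 several and 9160 none, and 34754 matched a GRCm38.p6 gene table by Entrez identifier, with 0 symbols updated. The brighter 50% of probe sets, by mean log2(signal + 16) over the 6 arrays, were tested with limma 3.58.1 in R 4.3.3 (empirical Bayes with variance trend, no block, two-sided), after a test on simulated data. Each gene took the values of the probe set with the highest mean. Genes on the pathway lists were named where past the threshold, up to 4 per list by absolute change. The members, lists and tests were chosen with earlier results of these data known.

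Replicate numbers do not mark a shared culture or day in the labels. Alternatives were pseudocounts of 1 and 64, no filter, a filter at the 60th percentile, quantile, cyclic loess and median scaling, no trend, robust variances, array weights, the replicate block, probe set means and each array left out. Figures were drawn with matplotlib 3.10.9.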

Additional observations from a re-analysis of the deposited data

How the results depend on the processing

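The call counts were within 1.5 times of the reported ones under all alternatives: 2 to 3 member genes higher, 2 lower in each, and 5377 to 7500 probe sets called, against 7250. The third higher gene was Tnfaip3. After median centring 59.2% of the called probe sets were higher, against 50.7%. Rela, Il33 and the brightest probe sets of Nfkbia and Vcam1 kept their direction and stayed past the threshold in the 17 alternatives that keep the brightest probe set, with adjusted p-values of at most 0.012, 0.0085, 0.0086 and 0.0017. Averaged over all probe sets of the gene, Nfkbia was 0.24 (adjusted p = 0.0043) and Vcam1 -0.26 (adjusted p = 0.013). Across the 6 fits that left out 1 array the log2 change was 0.27 to 0.31 for Rela, 0.30 to 0.33 for Nfkbia, -0.44 to -0.35 for Il33 and -0.72 to -0.62 for Vcam1. Results that turned sign were never called: Il6 ranged from -0.06 to 0.27 with 1 array left out, 1451314_a_at of Vcam1 from -0.08 to 0.22 (-0.03 without pyruvate replicate 3) and 1449731_s_at of Nfkbia from 0.00 to 0.15; the cause was not tested. With the replicate block 6917 probe sets were called, and no call of a member changed. Same-numbered arrays did not deviate together (r of -0.01, 0.01 and 0.02). With so few arrays this cannot settle whether the numbers pair the samples. Signals near the floor limit what can be said of Il6, Icam1 and Relb.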
